A study of Mus musculus with 24 samples.

Results

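Regulatory T cells (Tregs) labelled KO were compared between B16-F0 melanomas and the lymph nodes that drain them. The comparison takes every library whose labels read Treg and KO, which are 3 tumour and 3 lymph node libraries of the 24 in the study, and it is described across all genes. The study sorted Tregs and B cells from mice bearing this melanoma, out of either the tumour infiltrate or the draining node, and sequenced their RNA. B16-F0 is a pigmented mouse melanoma line. The KO label stands for Foxp3-Cre Appl2 f/f mice and the WT label for Foxp3-Cre mice, and the series title adds YFP to the name of the Cre allele, so every group carried a Cre driven from Foxp3. Appl2 encodes an endosomal adaptor that binds Rab5, and a Cre driven from Foxp3 acts in cells that express Foxp3. The sources used here do not give strain, age, sex, days of tumour growth or sort gates. The question set here was how the transcripts of these Tregs differed between the tumour and its draining node.

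Tregs are CD4 T cells that restrain immune responses under the transcription factor Foxp3. In lymph nodes they include central cells, which recirculate with Ccr7, and effector cells, while tumour Tregs are known as effector cells that carry costimulatory and checkpoint receptors and chemokine receptors for inflamed tissue. Tumour tissue is often poor in oxygen and glucose, and Tregs there are known to alter their sugar and lipid metabolism.

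The 6 libraries held 11314541 to 16239055 reads in genes, against 6245822 to 16239055 over the 24 libraries of the study, and 19523 to 21217 genes with a read. Even values made up 72 to 75.8 % of counts no higher than 10 and above 0, so a read here need not be a separate fragment, and floors for genes with no read are set at 6 reads. Mitochondrial genes took 0.640 to 0.693 % of reads in the lymph node libraries and 0.391 to 0.437 % in the tumour libraries. Levels are CPM, the reads of a gene relative to the TMM-scaled total of its library, and do not account for gene length. Fold changes are log2 ratios of tumour to lymph node with their standard error. A gene was called at an adjusted p under 0.05 in edgeR's quasi-likelihood test, adjusted by Benjamini-Hochberg over all genes tested, and "rose" or "fell" is written only of called genes. Whether 3 libraries of a group stand for 3 animals is not stated, so the p-values measure the spread between these libraries, which may be technical.

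The gene named by the KO label did not pass the test between the tissues. Appl2 (chromosome 10, 83435897 to 83484602, GRCm39) stood at 26.8, 22.7 and 28.3 CPM in the lymph node libraries and 25.1, 20.6 and 27.0 CPM in the tumour libraries. The groups overlapped, and the log2 fold change was -0.09 ± 0.11 (adjusted p 0.537). Scaled over all 24 libraries, Appl2 was 26.2 ± 3.02 CPM in the lymph node under KO against 22.2 ± 3.80 CPM under WT (SD, n = 3), and 24.6 ± 3.16 against 53.7 ± 4.25 CPM in the tumour. The lymph node libraries labelled KO thus did not hold less Appl2 than those labelled WT, and the label is used here as given. The count covers the whole gene and does not show which exons were read. Tumour Tregs labelled WT also held more RNA of melanoma markers, given below, and its part in their Appl2 level was not tested.

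The defining Treg transcripts were present in every library of both tissues. Foxp3, the lineage factor of Tregs (chromosome X, 7439883 to 7461484), stood at 331, 333 and 336 CPM in the lymph node and 275, 286 and 276 CPM in the tumour. The groups did not overlap, and the tumour level was lower by a small step (-0.24 ± 0.04, adjusted p 5.85e-06). Other annotated genes share 31.5 % of its exon bases, and their reads cannot be told apart here. Il2ra, the high-affinity chain of the interleukin-2 receptor (chromosome 2, 11647618 to 11698004), fell from 406, 422 and 398 CPM to 265, 248 and 240.3 CPM (-0.69 ± 0.05, adjusted p 1.18e-16). Ctla4, the inhibitory receptor that Tregs carry constitutively (chromosome 1, 60926159 to 60954991), stood at 1375, 1315 and 1399 CPM in the lymph node and 1409, 1506 and 1475 CPM in the tumour. Its groups did not overlap, yet the step was small, 0.12 ± 0.04 (adjusted p 0.0063). The call was lost without lymph node replicate 2 (0.09, adjusted p 0.0631), with offsets for exon length (0.01, adjusted p 0.905), without the B cell part of the counts (0.05, adjusted p 0.321) and over 24 libraries (0.10, adjusted p 0.19). The T cell genes Cd4 and Cd3e were present in all libraries, at 420.2 to 434 and 188 to 204 CPM in the lymph node and 475 to 490.0 and 202 to 212 CPM in the tumour.

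**Figure D1:**
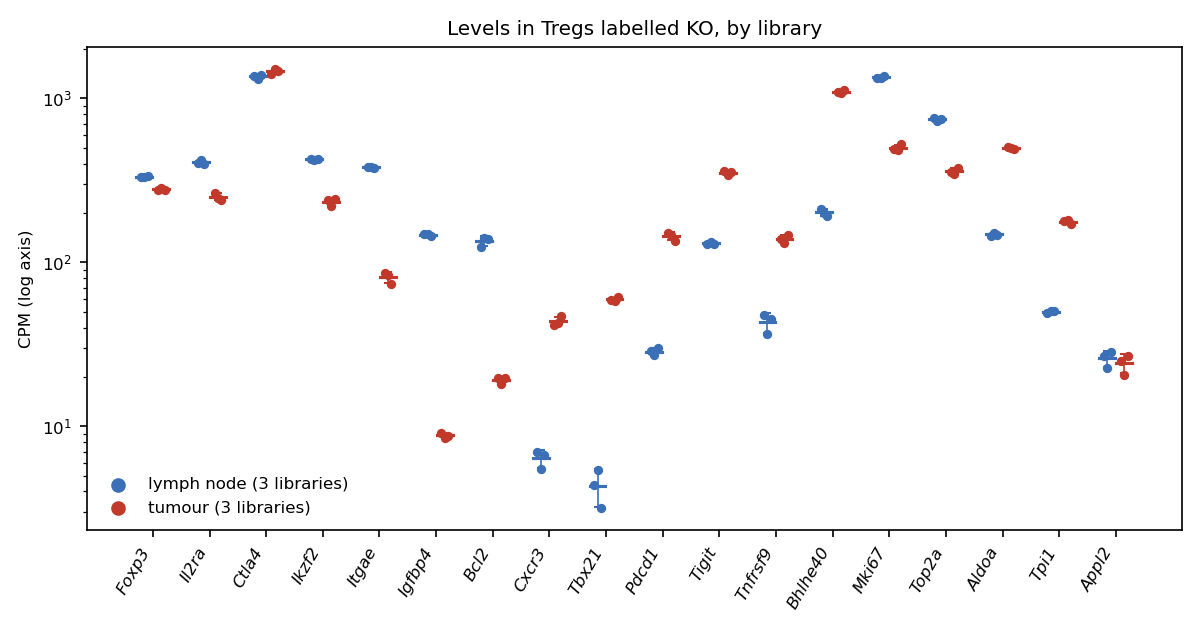
CPM (log axis) of Treg, homing, checkpoint, proliferation and glycolysis genes and of Appl2 in each of the 3 lymph node (blue) and 3 tumour (red) Treg libraries labelled KO, with points for libraries, a horizontal line for the mean and a bar for the SD. Libraries of one tissue lie close together, Appl2 overlaps between the tissues, and Igfbp4, Itgae, Bcl2 and Mki67 lie lower and Tbx21, Pdcd1, Bhlhe40 and Aldoa higher in the tumour.

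Markers of other cells moved with the tissue and are given before the Treg programmes. Genes of melanoma cells (13 markers) summed to 36.6 to 43.8 CPM in the lymph node and 51.9 to 62.8 CPM in the tumour, where Oca2 had no read, while in tumour Tregs labelled WT they summed to 2846 to 3034 CPM. Dct, a pigment enzyme of melanocytes, stood at 13.1, 12.8 and 13.2 CPM in the lymph node and 36.0, 33.3 and 37.9 CPM in the tumour (1.47 ± 0.11), against a mean of 2345 CPM in tumour Tregs labelled WT. Of 7 melanoma markers tested, 2 (Dct and Gpnmb) were called higher and 3 (Pmel, Mitf and Trpm1) lower, the latter count being 1 without tumour replicate 2. Without Dct the sum averaged 26.9 CPM in the lymph node and 23.2 CPM in the tumour. The low melanoma RNA of these libraries was known when the comparison was chosen and is given as a description. B cell markers (14) ran the other way, from 292 to 324 CPM in the lymph node to 61.0 to 63.5 CPM in the tumour. Scaled to the B cell libraries, they correspond to 4.78 to 5.35 % of the RNA in the lymph node and 1.21 to 1.27 % in the tumour. In bulk samples, fewer cells of a type and less RNA per cell cannot be told apart.

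The summed levels of CD8 T and NK cell, plasma cell and erythroid markers were higher in the tumour. CD8 T and NK markers (14) summed to 28.3 to 31.0 CPM in the lymph node and 303 to 322 CPM in the tumour, and 14 of 14 tested were called higher. Cd8b1, a chain of the CD8 coreceptor, stood at 14.8, 12.9 and 13.7 CPM against 94.7, 99.9 and 103 CPM (2.86 ± 0.08, edgeR adjusted p 3.6e-28). Gzmk had no read in the lymph node libraries and was at least 43.5-fold higher in the tumour over a floor of 6 reads in the group. No tumour library overlapped the lymph node for these markers. Plasma cell genes (12) summed to 478 to 489 CPM against 1620.0 to 1658 CPM, with the antibody chain Ighg2c at 18.9, 21.9 and 18.9 CPM against 437, 446 and 425 CPM. Of 10 tested, 8 were called higher and 2 lower, namely the antibody chain Ighm (-0.24 ± 0.05) and the receptor Tnfrsf13b (-0.89 ± 0.10), both also made by B cells. Xbp1 and Prdm1 of this list are also on lists of Treg programmes, so the sum need not be of plasma cells alone. Erythroid genes (6) summed to 1.59 to 2.10 CPM against 138 to 163 CPM.

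Myeloid and stromal markers moved in both directions, while of 4 epithelial markers tested 2 were called higher and 0 lower. Macrophage and monocyte genes (14) summed to 365 to 382 CPM in the lymph node and 147 to 148 CPM in the tumour. Of 11 tested, 4 were called higher (Cd14, Cd68, Itgam and Ly6c2) and 4 lower (Apoe, Lyz2, C1qa and C1qb), and C1qc had no read in the tumour. Dendritic cell genes (11) summed to 32.8 to 42.4 against 79.6 to 84.8 CPM, and neutrophil and mast cell genes (10) to 10.1 to 12.2 against 27.1 to 34.0 CPM with no read of Ly6g in either tissue. The dendritic cell genes Itgax, Xcr1, Zbtb46 and Cd209a rose, whereas Siglech and Fscn1 fell. Stromal and endothelial genes (16) summed to 115 to 131 against 89.8 to 96.3 CPM, and epithelial genes (10) to 61.5 to 65.4 against 113 to 125 CPM with no read of Krt5 in either tissue. MHC class II genes (10) summed to 1260.0 to 1286 against 1131 to 1203 CPM, with 6 called lower and 2 higher, and once the B cell part was taken out of the counts 5 were called higher and 2 lower.

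**Figure D2:**
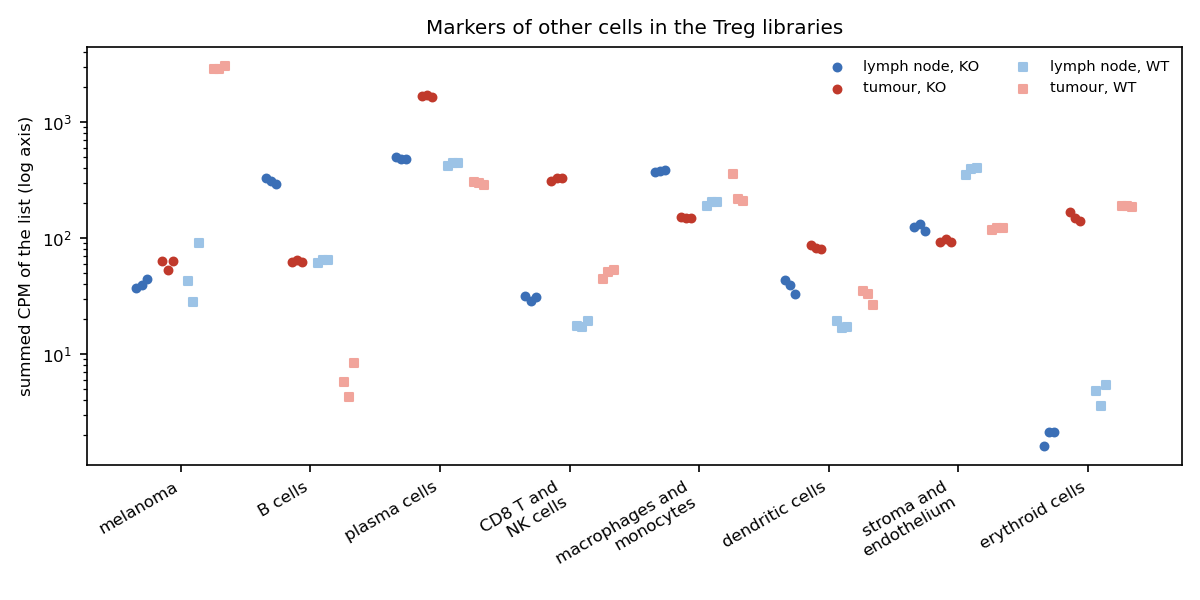
Summed CPM (log axis, scaled over all 24 libraries) of marker lists of other cells in each Treg library, with circles for the KO label, squares for the WT label, blue for lymph node and red for tumour. The 3 tumour libraries labelled KO lie near the lymph node libraries for melanoma genes, far below the tumour libraries labelled WT, and lie above the other groups for plasma cell and for CD8 T and NK cell genes.

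Between the tissues, 8197 of 14506 tested genes (56.5 %) were called, 4147 higher (28.6 %) and 4050 lower (27.9 %) in the tumour. Changes of at least 2-fold were fewer, with 1209 genes higher (8.33 %) and 1239 lower (8.54 %), and the median over all genes was -0.01. The groups did not overlap for 8916 genes (61.5 %), which is the background for every gene said to separate the tissues. Called genes differed in length, with a median exon length of 3334 bases among those higher, 5473 bases among those lower and 3835 bases among all tested. In 5 bins of equal size from the shortest to the longest genes the median log2 fold change was 0.17, 0.11, 0.02, -0.06 and -0.26, while under the WT label it lay between -0.04 and 0.02. With offsets that remove the length trend, chosen after seeing the data, 4277 genes were called higher and 3667 lower.

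Among genes averaging 5 CPM or more, the largest changes mixed Treg genes with genes of other cells. Higher in the tumour were the haemoglobins Hba-a1 (7.26 ± 0.27) and Hbb-bs (6.36 ± 0.13), the arginase Arg1 (6.08 ± 0.29), the NK receptor Klrc1 (5.05 ± 0.23), the chemokine Ccl5 (levels below), osteopontin Spp1 (4.88 ± 0.31), Ighg2c (4.47 ± 0.06) and the granzyme Gzma (4.46 ± 0.23). Small noncoding RNAs were among them, Snord3b4 at 0.245, 1.05 and 0.601 CPM against 21.9, 17.0 and 20.3 CPM and Rn7sk at 0.122, 0.300 and 0.901 CPM against 12.5, 13.3 and 11.9 CPM. Only genes whose groups did not overlap could enter these largest changes, so their separation is part of the choice. Lower in the tumour were the macrophage scavenger receptor Marco, at 52.0, 51.3 and 50.9 CPM against 0.356, 0.177 and 0.175 CPM, clusterin Clu (-4.85 ± 0.32), the complement receptor Cr2 (-4.70 ± 0.25), which is a B cell gene, Siglech of plasmacytoid dendritic cells (-4.28 ± 0.28), Igfbp4 (-4.06 ± 0.08) and the receptor Gpr83 (-3.32 ± 0.18). Drc1 (-4.34 ± 0.26), Apol7c (-4.13 ± 0.23), Ntn4 (-3.75 ± 0.17) and Slc28a2b (-3.71 ± 0.28) completed the 10 largest falls.

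Among genes averaging 50 CPM or more on no list of other cells, the rises were led by Lilrb4b and Lilrb4a, which encode inhibitory immunoglobulin-like receptors. Lilrb4b stood at 8.08, 5.33 and 6.61 CPM in the lymph node and 129.8, 145 and 129 CPM in the tumour (4.33 ± 0.10, edgeR adjusted p 3.43e-32). Its close copy Lilrb4a rose by 3.47 ± 0.07. Its exon bases are shared for 35.9 % with the predicted genes Gm40645 and Gm49339, and how the counting treated reads that match both copies is not given in the sources used here. Ctla2a, an inhibitor of cysteine proteases, went from 69.9, 60.9 and 68.4 CPM to 464, 527 and 494 CPM. Every tumour library lay above every lymph node library for these 3 genes. Hip1 (2.79 ± 0.07), Pcyt1a of phosphatidylcholine synthesis (2.45 ± 0.08), the serpin Serpina3g (2.37 ± 0.07, with 55.6 % of exon bases shared) and Jdp2, a relative of the AP-1 proteins (2.35 ± 0.08), were next to them, as was the antibody gene Ighg2b (3.09 ± 0.08). The falls at that level included the sialyltransferase St8sia6 (-2.93 ± 0.09), Nsg2, Treml2 (-2.72 ± 0.08), the ciliary transport gene Ift80 (-2.64 ± 0.07) and Dtx1, a deltex ubiquitin ligase (-2.33 ± 0.08). Nsg2 stood at 288, 292 and 278 CPM in the lymph node and 39.2, 38.5 and 39.2 CPM in the tumour, again without overlap.

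Genes of naive and central T cells were lower in the tumour. Of 15 members tested, 11 were called lower and 1 higher, with a median log2 fold change of -0.79 against -0.01 over all genes. Igfbp4, which binds insulin-like growth factors (chromosome 11, 98932070 to 98945218), stood at 149, 148 and 145 CPM in the lymph node and 9.08, 8.51 and 8.75 CPM in the tumour (-4.06 ± 0.08, edgeR adjusted p 1.55e-33). Every tumour library lay below every lymph node library for Igfbp4. The cytoskeletal gene Actn1 (-1.41 ± 0.06), the transcription factors Bach2 (-1.75 ± 0.11), Lef1 (-1.08 ± 0.06) and Tcf7 (-0.64 ± 0.05), and the recirculation genes Ccr7 (-1.01 ± 0.08), Klf2 (-0.79 ± 0.07) and S1pr1 (-0.24 ± 0.06) fell as well. The member that rose was Il7r, a chain of the interleukin-7 receptor, from 76.7, 74.5 and 71.1 CPM to 106, 104 and 106 CPM.

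The list of Treg identity genes was mostly lower in the tumour too, with 11 of 16 called lower, 3 higher and a median of -0.48. Itgae, the CD103 integrin chain that binds E-cadherin (chromosome 11, 72981409 to 73038272), stood at 379, 382 and 377 CPM in the lymph node and 86.2, 83.5 and 73.7 CPM in the tumour (-2.21 ± 0.05, edgeR adjusted p 3.28e-31). Ikzf2, which encodes Helios, fell from 424, 423 and 429 CPM to 238, 219.5 and 242 CPM (-0.85 ± 0.04, adjusted p 7.57e-20). Gpr83 fell from 24.1, 26.9 and 25.1 CPM to 2.14, 1.59 and 3.76 CPM. These 3 genes separated the tissues, and the folate receptor relative Izumo1r (-1.24 ± 0.07) and Nrp1 (-0.89 ± 0.06) fell with them. The members that rose were Il2rb, the shared chain of the interleukin-2 and interleukin-15 receptors (0.86 ± 0.05), Tnfrsf18, also known as GITR (0.67 ± 0.06), and Ctla4, whose call was not kept in every setting, as given above. Bach2 and Satb1 are on this list and on that of naive and central genes. Under the WT label 8 members were called lower and 4 higher, and Ikzf2 (-0.05) and Il2ra (-0.08) were not called. Markers of CD8 T and NK cells rose as given above. The part of those cells in the falls of this list, Foxp3 and Il2ra among them, was not tested.

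Genes known from tumour Tregs rose. Of 18 listed, 16 were tested, 13 were called higher and 1 lower, and the median was 0.78. Tnfrsf9, the costimulatory receptor 4-1BB, stood at 47.6, 36.3 and 45.3 CPM in the lymph node and 139.7, 131 and 147 CPM in the tumour (1.70 ± 0.07, edgeR adjusted p 1.38e-22). Penk, the enkephalin precursor, stood at 172, 174 and 171 CPM against 438, 411 and 396 CPM (1.28 ± 0.05). Neither gene overlapped between the tissues. The integrin chain Itgav rose by 1.13 ± 0.06. Ccr8, a receptor often used to mark tumour Tregs, stood at 12.4, 12.8 and 10.4 CPM in the lymph node and 19.3, 18.3 and 18.6 CPM in the tumour (0.67 ± 0.13). The member that fell was Hpgds, a prostaglandin D synthase (-1.73 ± 0.22).

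Inhibitory checkpoint receptors were called higher for 9 of 12 members and lower for 2, with a median of 0.58. Pdcd1, which encodes PD-1 (chromosome 1, 93966027 to 93980278), stood at 28.6, 27.2 and 29.9 CPM in the lymph node and 152, 146 and 136 CPM in the tumour (2.35 ± 0.07, edgeR adjusted p 4.01e-28). Tigit went from 129, 134 and 129 CPM to 359, 343 and 356 CPM (1.45 ± 0.05). No tumour library overlapped a lymph node library for either gene. Havcr2, which encodes TIM-3, rose from 24.9, 21.4 and 21.0 CPM to 60.2, 63.1 and 65.9 CPM. Markers of CD8 T and NK cells rose as given above, and the part of those cells in the checkpoint values was not tested. Btla (-1.75 ± 0.09) and Cd96 (-0.72 ± 0.10) were the members that fell. Costimulatory receptors were mixed, with 6 of 12 called higher and 4 lower. Tnfrsf1b, the second receptor for tumour necrosis factor, rose by 0.65 ± 0.05, and Slamf6 (-1.14 ± 0.07), Cd27 (-0.73 ± 0.06), Cd40lg (-0.53 ± 0.08) and Tnfrsf25 (-0.75 ± 0.16) fell.

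Mediators of suppression and repair were called higher for 10 of 17 members and lower for 1, with a median of 0.46. Gzmb, a granzyme of cytotoxic cells that activated Tregs also make, stood at 37.3, 34.5 and 38.7 CPM against 123, 127 and 114 CPM (1.73 ± 0.07, edgeR adjusted p 1.33e-23). Fgl2, a secreted suppressive protein, went from 52.3, 53.0 and 56.8 CPM to 153, 152 and 157 CPM (1.52 ± 0.06). Both separated the tissues, and the galectin Lgals1 rose by 1.21 ± 0.05. The member that fell was Nt5e, which encodes CD73 (-0.81 ± 0.08). Il10, the suppressive cytokine, did not pass the test (-0.10 ± 0.11, adjusted p 0.469), nor did the repair factor Areg (0.10 ± 0.06, adjusted p 0.107). Gzmb is also made by CD8 T and NK cells, whose markers rose as given above, and their part in this value was not tested.

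Chemokine and homing receptors split, with 12 of 24 called higher and 10 lower. Cxcr3, the receptor for interferon-induced chemokines, stood at 6.92, 5.48 and 6.69 CPM in the lymph node and 41.8, 42.9 and 46.7 CPM in the tumour (2.79 ± 0.12, edgeR adjusted p 2.12e-22). It stood far above the lymph node range in all 3 tumour libraries. Ccr7, by which cells enter lymph nodes, was among those that fell. Of 10 chemokine ligands, 8 were tested and 7 called higher. Ccl1 had no read in the lymph node libraries and stood at 3.56, 8.07 and 3.33 CPM in the tumour, at least 35.7-fold higher over a floor of 6 reads in the group. Ccl5 stood at 1.10, 0.675 and 0.601 CPM against 24.4, 26.6 and 26.9 CPM, and Ccl3, with 34.7 % of its exon bases shared, and Ccl4 rose by 4.37 ± 0.20 and 4.23 ± 0.34. Ccl5 is itself a member of the CD8 T and NK list, and the part of those cells in these values was not tested.

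Lineage transcription factors were called higher for 13 of 20 and lower for 6, with a median of 0.71. Tbx21, which encodes T-bet, the factor of type 1 immunity (chromosome 11, 96988897 to 97006157), stood at 4.41, 5.40 and 3.15 CPM in the lymph node and 59.0, 58.4 and 61.1 CPM in the tumour (3.79 ± 0.13, edgeR adjusted p 1.95e-26). Bhlhe40, a factor of activated T cells (chromosome 6, 108637590 to 108643886), went from 211, 201 and 193 CPM to 1097, 1078 and 1124 CPM (2.46 ± 0.04, adjusted p 7.52e-36). The tumour libraries stood far above the lymph node libraries for both. Hif1a, the oxygen-sensitive factor, stood at 459.5, 446 and 434 CPM against 925, 897 and 944 CPM (1.06 ± 0.04). Eomes rose from 3.98, 3.90 and 4.13 CPM to 35.4, 32.4 and 36.4 CPM (3.13 ± 0.14). Eomes is a member of the CD8 T and NK list and T-bet is also made by those cells, and their part in these values was not tested. Among the factors that fell were Maf (-0.64 ± 0.04), Ikzf3 (-0.73 ± 0.04) and Bcl6 (-0.31 ± 0.12).

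Cytokines and their receptors were called higher for 18 of 26 tested members and lower for 4, with a median of 0.66. Ifngr1, a chain of the interferon gamma receptor, stood at 224, 215 and 226 CPM against 883, 898 and 865 CPM (2.01 ± 0.04, edgeR adjusted p 2.71e-33). Il18rap, a chain of the interleukin-18 receptor, rose by 2.49 ± 0.10. Ifngr1 and Il18rap both separated the tissues. Il6ra and Il6st, the chains of the interleukin-6 receptor, fell (-2.09 ± 0.08 and -1.14 ± 0.06), as did Tgfbr1 (-1.43 ± 0.11) and Il4 (-1.36 ± 0.55). Among cytokines of type 1 responses, Ifng stood at 2.51, 1.73 and 1.05 CPM against 20.6, 26.9 and 27.0 CPM, with 25.9 % of its exon bases shared, and Tnf rose by 1.59 ± 0.10. Ifng is made by CD8 T and NK cells as well.

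Genes of the NF-kB system moved together. NF-kB proteins are held in the cytosol by inhibitors such as the product of Nfkbia, and several inhibitor genes are themselves targets of the pathway. Of 20 subunits, inhibitors and targets, 19 were called higher and 1 lower, with a median of 0.80. Nfkbia stood at 341, 342 and 339.8 CPM in the lymph node and 771, 774 and 801 CPM in the tumour (1.21 ± 0.04, edgeR adjusted p 1.5e-26). The subunit gene Nfkb2 stood at 164, 171 and 165 CPM against 399, 382 and 375 CPM (1.22 ± 0.05), with 20.5 % of its exon bases shared. The inhibitor Tnfaip3, also known as A20, stood at 1432, 1418 and 1405 CPM against 2510.0, 2402 and 2534 CPM (0.82 ± 0.03). All 3 genes separated the tissues, and the adhesion molecule Icam1 (1.34 ± 0.05) and Gadd45b (1.30 ± 0.05) rose with them. Rel, the c-Rel subunit, was the member called lower (-0.18 ± 0.05, adjusted p 0.00154), and with length offsets the list stood at 19 higher and 0 lower.

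Promoter sequences are shown for 3 of these genes, taken by smallest p from members that held the match described next and were called higher. A match in each was thus part of the choice. The list was made of the pathway's own genes and known targets, so a share above that of all genes is no separate support. In the 250 bases before the start of RefSeq genes (mouse build GRCm38.p6), the kB-type sequence of GGG and TTTCC separated by 2 bases of any kind was found on either strand for 5 of the 16 NF-kB members with a promoter in the table (Nfkb2, Nfkbia, Rel, Tnfaip3 and Traf3), 4 of which were called higher, and for 1.65 % of all 27025 genes in that table. A gene counts here if any of its promoters holds the match. The match is a description of the sequence and not of binding. Each stretch runs 5' to 3' on the strand of its gene, with the match in capitals: Nfkbia (chr12:55492648-55492897, minus strand) holds it on the opposite strand 29 bases before the start, Nfkb2 (chr19:46304487-46304736, plus strand) on the same strand 11 bases before the start, and Tnfaip3 (chr10:19015411-19015660, minus strand) on the opposite strand 12 bases before the start.
Nfkbia: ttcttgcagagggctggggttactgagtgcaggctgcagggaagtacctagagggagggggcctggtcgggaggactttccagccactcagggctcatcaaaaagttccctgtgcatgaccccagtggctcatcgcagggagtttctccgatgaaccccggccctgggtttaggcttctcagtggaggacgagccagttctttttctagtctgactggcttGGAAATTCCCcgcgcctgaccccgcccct
Nfkb2: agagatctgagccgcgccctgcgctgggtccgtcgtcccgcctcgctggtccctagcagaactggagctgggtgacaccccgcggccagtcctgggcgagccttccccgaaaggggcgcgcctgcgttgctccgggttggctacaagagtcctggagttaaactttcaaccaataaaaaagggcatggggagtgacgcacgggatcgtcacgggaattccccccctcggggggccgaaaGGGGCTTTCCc
Tnfaip3: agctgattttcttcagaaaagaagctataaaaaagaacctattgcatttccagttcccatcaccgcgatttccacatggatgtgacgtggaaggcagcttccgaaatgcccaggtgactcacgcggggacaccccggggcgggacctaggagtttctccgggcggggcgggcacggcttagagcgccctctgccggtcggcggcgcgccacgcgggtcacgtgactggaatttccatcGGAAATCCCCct

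Immediate early genes, which respond to receptor signals without new protein, were called higher for 21 of 26 members and lower for 3, with a median of 0.72. Atf3, a stress-induced factor, stood at 53.4, 54.1 and 51.2 CPM in the lymph node and 209.9, 202 and 185 CPM in the tumour (1.92 ± 0.06, edgeR adjusted p 2.58e-27). Fosb, an AP-1 subunit, went from 385, 411 and 386 CPM to 986, 918 and 914 CPM (1.27 ± 0.04). Both separated the tissues, and the phosphatase Dusp5 (1.48 ± 0.05) and Ier5 (1.30 ± 0.05) rose as well. The members that fell were Myc (-0.94 ± 0.09), Egr3 (-0.99 ± 0.12) and Ppp1r15a (-0.11 ± 0.03). The T cell receptor complex and its signalling genes moved in smaller steps, with 14 of 20 higher, 5 lower and a median of 0.24. The adhesion receptor Cd2 (0.65 ± 0.04) and the chain Cd3g (0.59 ± 0.05) rose, and the kinase Prkcq (-0.84 ± 0.05) fell.

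Interferon-induced genes rose in most cases. Of 24 genes of the type I response, 15 were called higher and 4 lower, with a median of 0.51. Ifit3, an antiviral protein gene, stood at 29.6, 27.2 and 25.8 CPM against 62.5, 58.9 and 62.0 CPM (1.16 ± 0.08, edgeR adjusted p 1.69e-15). Isg20 (0.97 ± 0.09), Mx1 (0.94 ± 0.10) and Irf7 (0.79 ± 0.09) rose, and Ifit2 (-0.56 ± 0.09), Oas2 (-0.84 ± 0.36), Usp18 (-0.73 ± 0.13) and Trim30a (-0.43 ± 0.06) fell. Of 22 genes of the interferon gamma response and MHC class I, 16 were higher and 4 lower, with a median of 0.40. Irf1, a transcription factor of that response, stood at 169, 172 and 167 CPM against 399, 419.5 and 414 CPM (1.29 ± 0.04). Ifit3 and Irf1 separated the tissues, and the GTPase Irgm1 (1.09 ± 0.09), the peptide transporter Tap1 (0.87 ± 0.05) and the class I chain H2-D1 (0.74 ± 0.04) rose. The members that fell were Gbp4 (-0.23 ± 0.05), Gbp5 (-0.75 ± 0.06), Gbp7 (-0.45 ± 0.05) and Ciita (-1.36 ± 0.13), the MHC class II activator that B cells also use.

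Glycolysis, which breaks glucose down to pyruvate and lactate, was called higher for 16 of 18 members and lower for 0, with a median of 1.07. Aldoa, which encodes aldolase (chromosome 7, 126394406 to 126408280), stood at 146, 151 and 148 CPM in the lymph node and 503, 499 and 489 CPM in the tumour (1.76 ± 0.04, edgeR adjusted p 1.79e-30). Tpi1, the triose phosphate isomerase, stood at 49.3, 50.4 and 50.3 CPM against 180.0, 181 and 171 CPM (1.84 ± 0.06). The tissues did not overlap for 17 of the members. Along the pathway the glucose transporter Slc2a1 (1.62 ± 0.11), Pfkp (1.22 ± 0.05), Gapdh (1.21 ± 0.05), Pgk1 (1.24 ± 0.06), Eno1 (1.19 ± 0.04), Pkm (0.95 ± 0.04) and Ldha (0.89 ± 0.05) rose. The regulators Pfkfb3 (-0.18 ± 0.08, adjusted p 0.0634) and Pfkfb4 (0.01 ± 0.29, adjusted p 0.98) did not pass the test.

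The promoters of glycolysis genes were searched in the same way for ACGTG, the core of the hypoxia response element. It was found on either strand for 9 of the 17 members with a promoter in the table, 8 of which were called higher, and for 18.5 % of all 27025 genes, counted in the same way. Per promoter it was in 11 of the members' 25 and in 16.6 % of 32851. Aldoa (chr7:126799255-126799504, minus strand) and Pkm (chr9:59656977-59657226, plus strand) are shown, taken by the same rule. The match is in capitals on the opposite strand, 126 and 75 bases before the start.
Aldoa: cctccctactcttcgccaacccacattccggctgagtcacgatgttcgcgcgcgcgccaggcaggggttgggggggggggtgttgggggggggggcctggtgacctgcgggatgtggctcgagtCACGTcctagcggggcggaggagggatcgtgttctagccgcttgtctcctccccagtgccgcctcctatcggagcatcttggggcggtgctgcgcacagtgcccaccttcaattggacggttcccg
Pkm: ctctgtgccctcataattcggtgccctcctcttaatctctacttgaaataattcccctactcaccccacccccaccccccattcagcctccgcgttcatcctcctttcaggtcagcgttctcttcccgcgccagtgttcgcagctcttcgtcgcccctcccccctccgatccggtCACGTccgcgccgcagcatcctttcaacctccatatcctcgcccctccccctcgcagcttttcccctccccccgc

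Hypoxia response genes outside glycolysis were called higher for 11 of 15 tested members and lower for 1, with a median of 0.70. Bnip3, a mitophagy receptor, stood at 4.53, 3.30 and 3.98 CPM against 22.4, 19.3 and 19.3 CPM (2.37 ± 0.16, edgeR adjusted p 6.86e-16). Mxi1, a partner of Max, went from 96.8, 97.6 and 87.4 CPM to 300.2, 274 and 284 CPM (1.62 ± 0.05). Both separated the tissues, and the growth factor Vegfa (1.53 ± 0.11) and Ndrg1 (1.14 ± 0.07) rose as well. The member that fell was Pdk1, a kinase that restrains pyruvate oxidation (-0.49 ± 0.09).

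Sterol synthesis genes rose with exceptions, and of the lipid uptake list 8 of 16 members were called, beside 56.5 % of all genes. Of 24 genes of cholesterol and fatty acid synthesis, 16 were called higher and 3 lower, with a median of 0.59. Cyp51, a sterol demethylase, stood at 36.5, 32.6 and 35.1 CPM against 97.5, 85.4 and 105 CPM (1.48 ± 0.08, edgeR adjusted p 7.1e-20), and Hmgcs1, an early enzyme of the same pathway, rose by 1.09 ± 0.08. The desaturases Scd1, at 55.9, 57.0 and 54.1 CPM against 13.0, 16.7 and 15.4 CPM, and Scd2 (-1.12 ± 0.08) and the carboxylase Acaca (-0.40 ± 0.12) fell. Once the B cell part was taken out of the counts, the log2 fold change of Scd1 turned from -1.88 ± 0.10 to 0.31 (adjusted p 0.614). Of 16 genes of lipid uptake and storage, 6 were higher and 2 (Cd36 and Acsl5) lower. With length offsets 10 were higher, and the count lower was 1 without lymph node replicate 1 or 2 or tumour replicate 1 and 0 without lymph node replicate 3. The lipid droplet coat Plin2 (1.88 ± 0.12) and the acyltransferase Dgat1 (1.58 ± 0.08) rose, and Cd36, a fatty acid receptor known from tumour Tregs, was low in both tissues, at 1.71, 1.35 and 1.20 CPM against 0.0890, 0.886 and 0.700 CPM.

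Of the amino acid list 9 of 16 members were called and of the respiratory chain 14 of 22, beside 56.5 % of all genes. Of 16 genes of amino acid transport and mTORC1 targets, 7 were called higher and 2 (Phgdh and Shmt2) lower, the latter count being 1 without lymph node replicate 3 or tumour replicate 3, in DESeq2 and over 12 libraries. Slc3a2, the heavy chain of several amino acid exchangers, stood at 233, 242 and 227 CPM against 644, 604 and 593 CPM (1.40 ± 0.04, edgeR adjusted p 3.2e-27). The cystine exchanger Slc7a11 stood at 0, 0 and 0.150 CPM in the lymph node, on 2 reads in all, and at 4.18, 4.61 and 3.94 CPM in the tumour. Both separated the tissues. Nuclear genes of the respiratory chain were called higher for 12 of 22 and lower for 2 (Sdha and Ndufs1), with a median of 0.29, and Cycs, which encodes cytochrome c, rose by 0.55 ± 0.07.

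**Figure D3:**
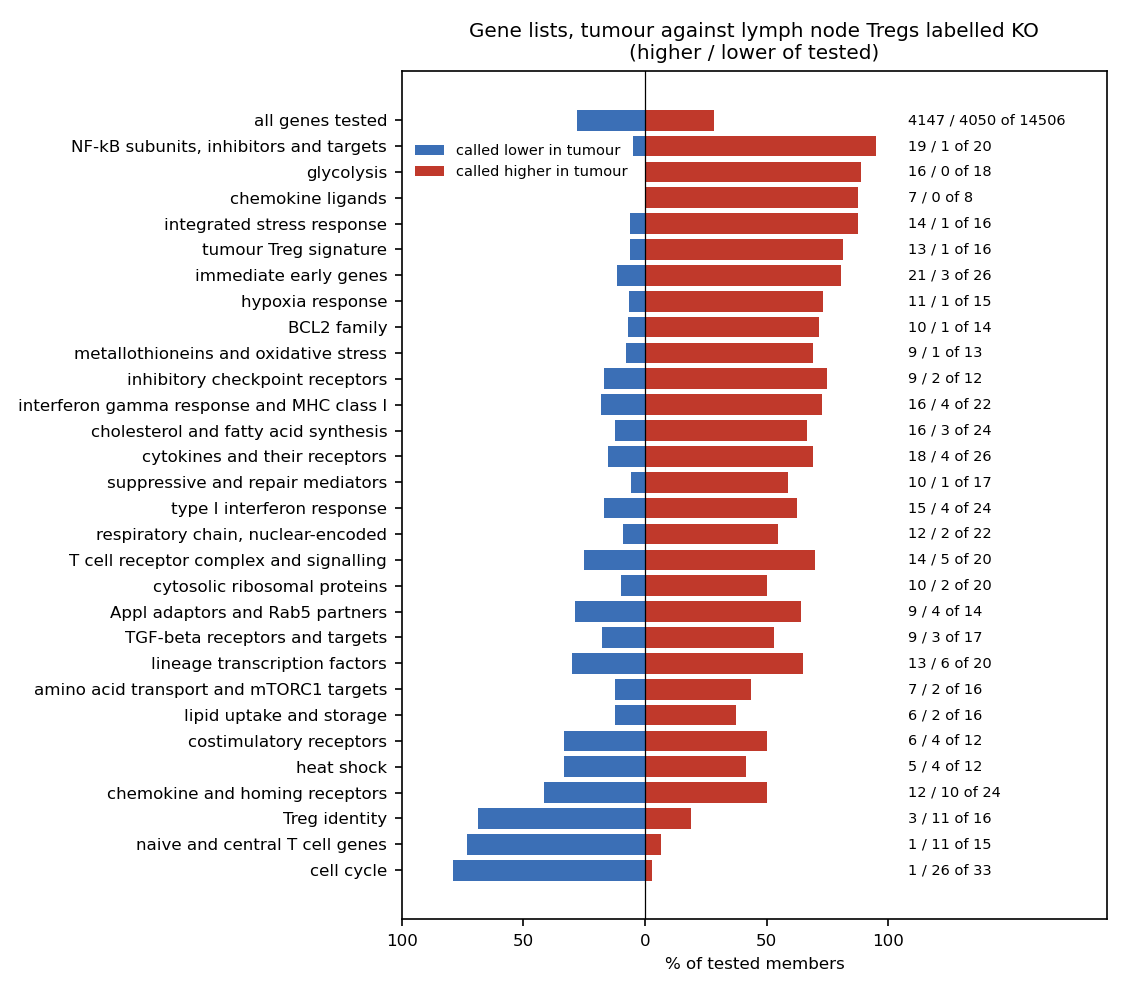
Share of the tested members (horizontal axis, %) of each Treg programme list called higher (red, to the right) or lower (blue, to the left) in tumour against lymph node Tregs labelled KO, with all 14506 tested genes in the top row and the counts at the right. NF-kB and glycolysis genes lie on the higher side (19 of 20 and 16 of 18), and cell cycle genes (26 of 33), naive and central T cell genes (11 of 15) and Treg identity genes (11 of 16) on the lower side.

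Proliferation genes were lower in the tumour. Of 33 cell cycle genes, 26 were called lower and 1 higher, with a median of -0.55. Mki67, the Ki-67 antigen of dividing cells (chromosome 7, 135291513 to 135318090), stood at 1339, 1337 and 1369 CPM in the lymph node and 489.9, 486 and 524 CPM in the tumour (-1.42 ± 0.04, edgeR adjusted p 2.97e-29). Top2a, a topoisomerase of dividing cells, went from 759, 731 and 747 CPM to 356, 347 and 377 CPM (-1.04 ± 0.04). Both separated the tissues, and the mitotic genes Cenpf (-1.81 ± 0.06) and Cenpe (-1.46 ± 0.07) fell with them. Pcna, the clamp of DNA replication, was the member that rose (0.46 ± 0.05).

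Stress response genes rose together, while ribosomal genes moved in small steps and heat shock genes in both directions. Cytosolic ribosomal proteins were called higher for 10 of 20 and lower for 2 (Rpl3 and Rpl5), with a median of 0.11, but 7 were higher and 5 lower with length offsets. The count lower was 4 without tumour replicate 2 and 1 without lymph node replicate 1 or 3 or tumour replicate 1. Genes of the integrated stress response were called higher for 14 of 16 tested and lower for 1, Ppp1r15a, with a median of 0.92. Atf4, the central factor of that response, stood at 220.2, 207 and 217 CPM against 415, 449.6 and 422 CPM (1.01 ± 0.04, edgeR adjusted p 4.72e-22). Xbp1, a factor of the unfolded protein response, stood at 119, 117 and 115 CPM against 221, 217 and 221 CPM (0.92 ± 0.05). Both separated the tissues, and Herpud1 rose by 0.91 ± 0.09. Xbp1 is also a plasma cell gene, and the part of plasma cells, whose summed level was higher, was not tested. Heat shock genes split, with 5 of 12 higher (Hspa1a, Hspa1b, Hspa5, Hspa8 and Dnajb1) and 4 lower (Hsph1, Hspd1, Hspe1 and Hsp90aa1). Hspa1a and Hspa1b are near-identical copies, so the split of their reads is uncertain.

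Survival genes changed against each other. Bcl2, the anti-apoptotic founder of its family (chromosome 1, 106465908 to 106642004), stood at 125, 141 and 139.6 CPM in the lymph node and 19.8, 18.2 and 19.6 CPM in the tumour (-2.80 ± 0.08, edgeR adjusted p 4.09e-29). It was the member that fell among 14 tested, of which 10 rose. Its anti-apoptotic relatives Bcl2a1d (1.95 ± 0.10) and Bcl2a1b (1.49 ± 0.08), which are close copies, and the pro-apoptotic Pmaip1 (0.85 ± 0.04) rose. Of 13 tested metallothionein and oxidative stress genes 9 rose and 1, Gclc, fell, with the sulfiredoxin Srxn1 (1.58 ± 0.22) and the zinc exporter Slc30a1 (1.14 ± 0.11) among those that rose. Of 17 TGF-beta receptors and targets 9 rose, among them the inhibitors Smad7 (1.04 ± 0.05) and Skil (0.90 ± 0.04), and 3 fell, namely Itgae, Tgfbr1 and Tgfbr3. Of 14 Appl adaptors and Rab5 partners 9 rose, among them the Rab5 exchange factor Rabgef1 (1.01 ± 0.07), the adiponectin receptor Adipor2 (0.79 ± 0.06) and the kinase Akt1 (0.68 ± 0.07), and 4 fell, namely Rabep1 (-0.60 ± 0.06), Rab5b, Ocrl and Appl1. With length offsets this list stood at 9 higher and 2 lower.

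The tissue change under the KO label was set against that under the WT label, with which it shares no library. The WT fit called 41.3 % of its genes, 21.4 % higher and 19.9 % lower. Of 13766 genes tested in each fit, 1707 were called higher in the tumour under both labels, which is 43.8 % of the 3901 under KO and 60.7 % of the 2814 under WT. A further 1625 were called lower under both, which is 41.4 % of 3928 and 58.6 % of 2774. Opposite calls were made for 397 genes higher under KO and 318 lower under KO. The interaction of label and tissue called 5319 of 15589 genes (34.1 %), 2615 with a more positive change under KO (16.8 %) and 2704 with a more negative one (17.3 %). Tumour libraries labelled WT held the larger melanoma sum given above, and without the melanoma list's own genes the interaction called 2609 more positive and 2715 more negative. The part of other melanoma transcripts was not tested.

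Glycolysis rose under both labels, with the same 16 members called higher in each, and the interaction called 8 of 18 with a smaller rise under KO and 0 with a larger one. Of the tumour Treg genes, 13 were called higher under both labels and 16 under WT, and 9 of 16 had a more negative change under KO. The fall of naive and central genes was shallower under KO, where 11 of 15 had a more positive change and 1 a more negative one. Tcf7, a factor of naive and central T cells, was at -0.64 ± 0.05 under KO and -2.38 under WT (interaction 1.75). Pdcd1, at 2.16 under WT, gave an interaction of 0.20 that did not pass the test (edgeR adjusted p 0.0985). For Tbx21, at 3.18 under WT, the interaction was 0.62 with an adjusted p of 0.0571.

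Cell cycle genes differed between the labels. Under WT 9 of 33 rose and 9 fell, and the interaction called 22 more negative under KO and 3 more positive. Scaled over all 24 libraries, Mki67 was 1358 ± 20.5 CPM in lymph node Tregs labelled KO and 508 ± 18.9 CPM in tumour Tregs (SD, n = 3). Under WT it was 1519 ± 117 CPM in the lymph node and 1801 ± 6.20 CPM in the tumour, an interaction of -1.66 (edgeR adjusted p 1.58e-23). The 2 tumour groups thus stood further apart than the 2 lymph node groups. On the same scale melanoma markers summed to 2846 to 3034 CPM in tumour Tregs labelled WT and 53.0 to 63.3 CPM under KO. The part of melanoma RNA in the cell cycle genes was not tested. Foxp3 rose under WT (0.41) where it fell under KO, an interaction of -0.64 (adjusted p 1.42e-10). Ikzf2 gave an interaction of -0.80 and Ctla4 one of -0.96. Appl2 itself rose under WT (1.28), an interaction of -1.36 (adjusted p 6.51e-09). The part of melanoma RNA in the interactions of Foxp3, Ikzf2, Ctla4 and Appl2 was not tested either.

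Immediate early, T cell receptor and ribosomal genes were more positive under KO. Of 26 immediate early genes 18 had a more positive change under KO and 2 a more negative one, and Fosb was at -0.13 under WT. Of 20 T cell receptor genes 11 were more positive and 3 more negative, and 6 that rose under KO fell under WT. All 20 ribosomal protein genes fell under WT, and all 20 were more positive under KO, in every alternative run for this interaction. Length offsets were not among those alternatives. From the shortest to the longest bin of genes the median change went from 0.17 to -0.26 under KO and from -0.03 to -0.04 under WT. The part of gene length in this interaction was not tested. Integrated stress response genes were more positive for 8 of 17 and more negative for 0, with Xbp1 at 0.00 under WT. CD8 T and NK markers summed under WT to 17.1 to 19.2 CPM in the lymph node and 44.5 to 53.0 CPM in the tumour, and 6 of 14 were more positive under KO. Plasma cell genes were more positive for 8 of 11. Stroma and endothelium markers summed under WT to 348 to 400.5 CPM in the lymph node and 116 to 122 CPM in the tumour, with 15 of 15 lower, and 10 of 15 were more positive under KO. The part of these cells in the differences between labels was not tested.

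**Figure D4:**
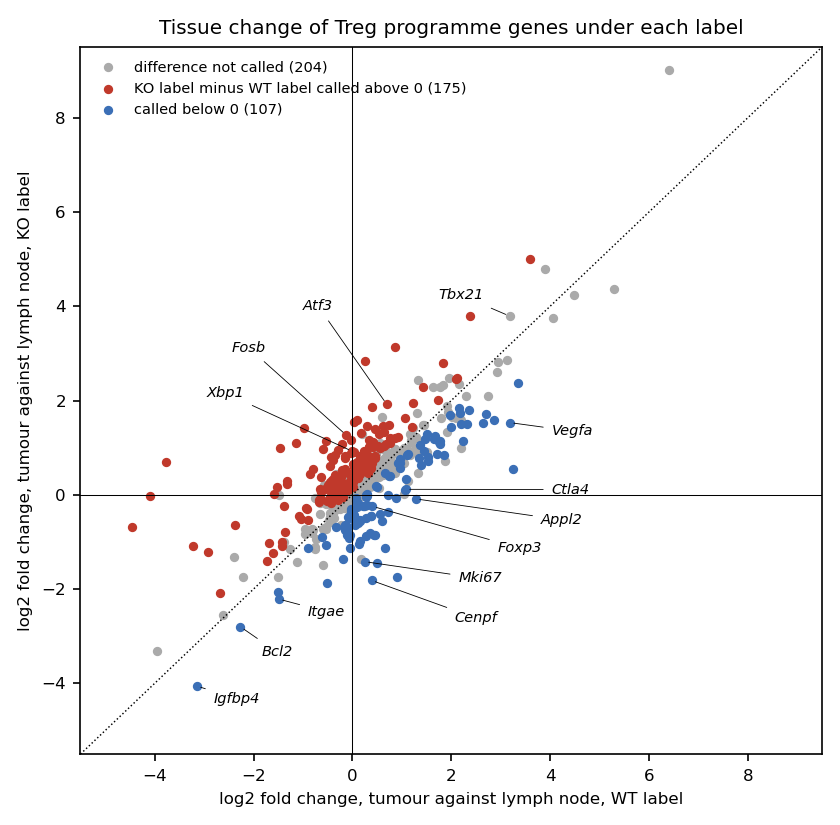
Log2 fold change of tumour against lymph node Tregs under the WT label (horizontal) and the KO label (vertical) for 486 genes of the Treg programme lists, coloured by the interaction call: red for a more positive change under KO (175 genes), blue for a more negative one (107) and grey for no call (204), with a dotted line where both changes are equal. Mki67, Cenpf, Foxp3 and Appl2 lie below the line in blue, Fosb, Xbp1 and Atf3 above it in red, and Tbx21 is grey.

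B cells of the same label were compared as well, again with no shared library. The B cell fit called 30.9 % of its genes, 17.5 % higher and 13.4 % lower. Of 12857 genes tested in each fit, 1435 were called higher in the tumour in both cell types, which is 38.4 % of the 3734 in Tregs and 62.1 % of the 2311 in B cells. A further 1034 were called lower in both, which is 28.4 % of 3639 and 58.6 % of 1764. The interaction of cell type and tissue called 4647 of 15431 genes (30.1 %), 1778 more positive in Tregs (11.5 %) and 2869 more negative (18.6 %). Without tumour B cell replicate 1 the counts were 2128 and 3076.

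Glycolysis differed between the cell types. In B cells 4 of its members rose, all of them among the 16 of Tregs, and the interaction called 13 of 18 more positive in Tregs and 0 more negative. Aldoa was at 0.14 in B cells (interaction 1.59). Hip1 was at 0.11 in B cells (interaction 2.65), and the interaction of Tbx21 was 2.94. Cell cycle genes fell in both, with 23 members called lower in both cell types. The interaction called 7 of 33 more negative in Tregs and 0 more positive, beside 18.6 % and 11.5 % of all genes. Heat shock genes rose in B cells for all 12 members, and 11 of 12 were more negative in Tregs. NF-kB genes rose in both, 15 of them shared. T cell genes such as Cd3e (4.82) and Ctla4 (3.11) rose in the tumour B cell libraries as well, so the interaction of such genes also holds the T cell transcripts of those libraries, whose part was not tested.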

How the data were processed

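Bulk RNA of sorted Tregs and B cells was sequenced. The submitters' processing notes name fastp 0.23.4 (a trimmer), STAR 2.5.3a (an aligner) and featureCounts (a read counter). The deposited values are raw read counts per gene for 56791 genes in 24 libraries, and their coordinates match GRCm39. The sources used here give no annotation release, strand setting or treatment of duplicates and multimapping reads, so reads of overlapping genes cannot be told apart. Libraries were grouped by their labels. Counts of the 6 libraries were scaled by TMM, filtered with filterByExpr and tested with edgeR 4.0.16 in R 4.3.3 by its quasi-likelihood test, with a threshold of 0.05 on the Benjamini-Hochberg adjusted p. The 12 Treg libraries gave the interaction of label and tissue, and the 12 libraries labelled KO that of cell type and tissue. The edgeR fits of the tissue change and of both interactions were tested on simulated data, and the alternatives named below were not. No replicate pair of the 6 libraries held identical counts, which does not show whether a pair came from separate animals. The chi-square per gene between replicates sets their squared difference against that of sampling separate reads. It was 2.4 to 2.83 in the lymph node and 3.46 to 4.14 in the tumour.

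The 40 gene lists hold 633 distinct genes; 672 of 673 entries were matched, a few of them through RefSeq synonyms. The comparison, its members and the lists were chosen with earlier results of these data known. The genes named by rule were Appl2, Foxp3, Il2ra and Ctla4, the 10 largest called changes in each direction among genes averaging 5 CPM or more whose groups did not overlap, the same from 50 CPM on outside the lists of other cells, the members with the smallest p in each list (4 at most), and the 5 largest in each direction of each interaction. Predicted genes and antigen receptor segments were left out of the largest changes. Genes named beyond this rule, including members of counts of 5 or fewer, were chosen after their values were seen. A few genes that the rule or the lists name are not reported here. The B cell part of a Treg library was estimated from 14 markers relative to the B cell libraries of the same tissue and label. Alternatives were upper-quartile and RLE scaling, no filter, DESeq2 1.42.0, a replicate block, leaving out each library, fits over 12 or 24 libraries, removal of the B cell part or of the melanoma genes, and, added after seeing the data, length offsets and halved counts. Promoters are RefSeq sequences of GRCm38.p6, used with no coordinates of the counts.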

Additional observations from a re-analysis of the deposited data

Results flagged for a closer look

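The change from lymph node to tumour under the KO label differed by a direct test from that of Tregs labelled WT, for 2615 genes more positive and 2704 more negative. Among genes averaging 5 CPM or more, the largest positive differences on the log2 scale were those of antibody genes, Ighg1 at 11.06, Ighg2b at 7.31, Ighg2c at 6.54 and Iglc1 at 6.09, and of the small nucleolar RNA Snord3b4 at 5.17. Ighg1 averaged 25.9 CPM in the lymph node and 41.7 CPM in the tumour under KO, against 94.5 and 0.0628 CPM under WT, so its fitted value rests on a group near 0 and is no bound. The largest negative differences were those of Tyr at -6.60, Kif21a at -5.90, Mlph at -5.45, Syt4 at -5.43 and Met at -5.26. Each of these averaged under 2 CPM in the KO groups, while Tyr averaged 45.6 CPM and Met 56.9 CPM in tumour Tregs labelled WT. Tyr is on the melanoma list, whose sum differed between the tumour groups, and the part of melanoma RNA in the other 4 genes was not tested. Without lymph node Treg KO replicate 3 the difference of Tyr was -2.34 with an edgeR adjusted p of 0.885.

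The tissue change of Tregs also differed by a direct test from that of B cells labelled KO, for 1778 genes more positive and 2869 more negative. The largest positive differences were those of the haemoglobin Hbb-bt at 4.43, Nrgn at 3.68, Dhrs3 at 3.33, Col18a1 at 2.98 and Tbx21 at 2.94. Hbb-bt had no read in lymph node Tregs, and without lymph node Treg KO replicate 1 its difference was 4.38 with an edgeR adjusted p of 0.0548. The largest negative differences were those of the cytokine Lif at -7.88, She at -6.88, Pdcd1 at -5.88, Nrn1 at -5.54 and Dct at -5.40. Lif, She, Pdcd1 and Nrn1 had no read in lymph node B cells, so their fitted values are no bounds.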

How the results depend on the processing

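The 4147 genes higher and 4050 lower stayed within 1.5 times of these counts in every alternative run: upper-quartile scaling gave 3959 and 4288, no filter 4059 and 4273, DESeq2 3760 and 3448, all 24 libraries in one fit 3532 and 4028, removal of the B cell part 4057 and 3942, and halved counts, tried after seeing the data, 3982 and 3897. Leaving out each library gave 3840 to 4095 genes higher and 3631 to 3974 lower, and the interactions gave 2390 to 2564 and 2447 to 2701 genes between labels and 1486 to 2128 and 2402 to 3076 between cell types. Upper-quartile scaling moved the median of all genes to -0.04. Of 2891 values of 181 named genes in the tissue comparison, 2874 kept their direction and their side of the threshold, 14 lost the call, 1 gained it and 2 turned. Scd1 turned to 0.31 (edgeR adjusted p 0.614) and H2-Ob to 0.0199 (adjusted p 0.974) when the B cell part was removed. That alternative takes from each gene a share of its level in the B cell libraries, and the cause of these turns was not tested. Ctla4 lost its call in the 4 settings given in the report, and the cause was not tested. The other genes that lost or gained a call were Pmel, Cpa3, Rps14, Rplp0, H2-DMb2 and Epcam.

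Same-numbered libraries of the tissues did not deviate together (correlations of -0.053, -0.066 and -0.005 over 9866 genes). With 3 libraries per group this cannot show whether the numbers mark pairs, which the labels do not state. With a replicate block 4051 genes were called higher and 3967 lower in the tissue comparison, 2547 and 2632 between labels, and 1718 and 2736 between cell types.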
